A study of Homo sapiens with 12 samples.

Results

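The guanylate-binding protein (GBP) genes GBP1 to GBP7 form a cluster on human chromosome 1, and ATAC-seq measured how accessible their chromatin was in 2 cancer cell lines, DU-145 and BT-549, with or without an active hairpin against MUC1. A bin of 100 bp was taken as belonging to the cluster when it lay in the body of 1 of the 7 genes (GENCODE v44, GRCh38) or within 20 kb on either side. In the DU-145 table, 69 of 709366 bins met this rule, and they belonged to 9 of 79177 accessible regions, a region being a run of adjacent bins. In the BT-549 table, 191 of 472994 bins met it, in 20 of 46298 regions. The 2 tables shared 53 of these bins in 6 runs. DU-145 cells come from a human prostate cancer and BT-549 cells from a human breast cancer of the triple-negative kind. All cells, the controls included, carried the same doxycycline-inducible short hairpin RNA against MUC1 (tet-MUC1shRNA), and they were treated for 7 days with vehicle (0.1% DMSO) or with doxycycline (DOX), which turns on the hairpin. For each line there were 3 vehicle and 3 DOX libraries of 50000 cells, 12 in all. Cells with a control hairpin and RNA were not analysed here, so that the effect of DOX itself and that of MUC1 silencing cannot be told apart, and the loss of MUC1 RNA was not checked.

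GBPs are large GTPases of the dynamin superfamily. Interferon-gamma, acting through its receptor, the kinases JAK1 and JAK2 and transcription factors that include IRF1, is their best known inducer, and many of their promoters carry an interferon-stimulated response element (ISRE) or a gamma-activated site (GAS), the sequences read by such factors. In infected cells, GBPs assemble on vacuoles and on the surface of bacteria, where GBP1 acts as a lead sensor and recruits GBP2, GBP3 and GBP4 and, with them, caspase-4. GBP1, GBP2 and GBP5 carry a lipid anchor at their C terminus. In tumors, GBP expression is commonly read as a trace of interferon signalling.

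The 7 genes lie between chr1:89006679 and chr1:89388160. From the lower coordinates upward, they are GBP3 (chr1:89006679-89022894), GBP1 (chr1:89051882-89065360), GBP2 (chr1:89106132-89150456), GBP7 (chr1:89131742-89176009), GBP4 (chr1:89181144-89198942), GBP5 (chr1:89256189-89272860) and GBP6 (chr1:89364059-89388160). GBP6 is on the plus strand and the others are on the minus strand. GBP3, GBP1 and GBP2 had an accessible region at the start site in both tables, and GBP4 had one in the BT-549 table. For GBP5, the BT-549 table had a region on either side of the start site, both within 1 kb of it and neither over it. Neither table had an accessible region within 1 kb of the start sites of GBP6 and GBP7. The window of GBP3 also reached the shared promoter of KYAT3 and RBMXL1, a neighbor that is not a GBP gene.

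Promoter sequences of 5 of the 7 genes (250 bases before to 50 bases after the start site) were found in RefSeq (GRCh38.p14), and GBP2 and GBP5 had no entry. The promoters of GBP3, GBP1 and GBP4 are shown because the regions that contain them are among those compared next, and because each contains a match to the ISRE letters. Capitals mark matches to the ISRE (GAAA, any 2 bases and GAAA, or TTTC, any 2 bases and TTTC on the other strand) and to the GAS (TTC, any 3 bases and GAA), and the strand shown is that of the gene.
GBP3 promoter, chr1:89022817-89023116: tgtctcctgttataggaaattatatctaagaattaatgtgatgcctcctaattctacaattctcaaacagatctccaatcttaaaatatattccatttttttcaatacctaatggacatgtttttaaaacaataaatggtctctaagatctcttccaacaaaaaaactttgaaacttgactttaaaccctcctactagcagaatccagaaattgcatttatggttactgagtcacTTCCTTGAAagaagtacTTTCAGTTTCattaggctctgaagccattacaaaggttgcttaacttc
GBP1 promoter, chr1:89065159-89065458: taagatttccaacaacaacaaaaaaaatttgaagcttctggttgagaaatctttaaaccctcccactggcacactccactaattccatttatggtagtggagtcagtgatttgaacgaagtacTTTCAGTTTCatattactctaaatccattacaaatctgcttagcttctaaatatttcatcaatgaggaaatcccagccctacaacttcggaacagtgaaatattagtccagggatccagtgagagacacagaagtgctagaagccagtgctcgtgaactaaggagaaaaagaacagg
GBP4 promoter, chr1:89198893-89199192: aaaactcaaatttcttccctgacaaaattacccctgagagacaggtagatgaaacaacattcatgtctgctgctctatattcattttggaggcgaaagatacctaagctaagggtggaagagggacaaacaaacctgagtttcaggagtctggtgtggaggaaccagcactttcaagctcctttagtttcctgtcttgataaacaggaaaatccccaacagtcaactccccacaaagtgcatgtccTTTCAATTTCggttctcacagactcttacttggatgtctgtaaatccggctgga
The ISRE match began 127 bases before the start site in GBP1, 4 bases before it in GBP4 and at the base numbered 3 of the transcript in GBP3. GBP3 also held a GAS match 15 bases before the start site and the AP-1 letters TGAGTCA 23 bases before it. GBP1 and GBP3 shared an unbroken run of 19 bases around the ISRE match (gaagtactttcagtttcat), whereas the longest run that GBP4 shared with GBP1 was 9 bases. The GBP6 and GBP7 promoters contained no match to these letters. Of 35116 promoters of the same length, 3.57% held an ISRE match, 7.66% a GAS match and 4.95% an AP-1 match (TGACTCA or TGAGTCA). A match describes the letters and not the binding of a factor.

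Distal sequences are shown for the region with the highest vehicle coverage among those near a GBP start site in BT-549 cells, upstream of GBP5, and for the 2 regions with the smallest adjusted p among those that opened in DU-145 cells. Each is 300 bases around the highest bin on the plus strand of GRCh38, with GAS matches in capitals for the GBP5 sequence and AP-1 matches in capitals for the DU-145 sequences.
Upstream of GBP5, chr1:89274501-89274800: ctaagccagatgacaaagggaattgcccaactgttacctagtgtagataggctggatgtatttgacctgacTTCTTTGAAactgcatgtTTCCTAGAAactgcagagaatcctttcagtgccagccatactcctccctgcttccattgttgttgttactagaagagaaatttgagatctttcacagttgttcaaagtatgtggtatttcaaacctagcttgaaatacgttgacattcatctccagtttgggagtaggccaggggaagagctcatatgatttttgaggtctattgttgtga
Downstream of GBP3, chr1:89001601-89001900: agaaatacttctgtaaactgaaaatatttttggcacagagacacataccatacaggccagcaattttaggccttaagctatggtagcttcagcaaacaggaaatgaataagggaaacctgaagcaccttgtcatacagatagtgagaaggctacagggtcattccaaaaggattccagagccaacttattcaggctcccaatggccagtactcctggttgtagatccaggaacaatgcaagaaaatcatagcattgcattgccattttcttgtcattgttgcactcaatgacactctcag
Upstream of GBP3, chr1:89041101-89041400: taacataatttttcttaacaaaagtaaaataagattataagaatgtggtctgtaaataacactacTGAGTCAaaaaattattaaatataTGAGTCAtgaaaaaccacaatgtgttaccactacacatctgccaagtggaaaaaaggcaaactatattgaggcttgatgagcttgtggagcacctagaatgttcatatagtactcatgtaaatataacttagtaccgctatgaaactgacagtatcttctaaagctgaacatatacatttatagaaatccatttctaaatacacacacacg
The GBP5 sequence held 2 GAS matches, the sequence upstream of GBP3 held 2 AP-1 matches and the sequence downstream of GBP3 held no match to any of the words. Over all windows of this length, ISRE letters were found in 4 of the 20 BT-549 regions of the cluster (4.92% of all BT-549 regions) and in 2 of the 9 DU-145 regions (3.68% of all). GAS letters were found in 3 and 1 of them (8.94% and 9.33% of all), and AP-1 letters in 3 and 5 (17.2% and 30.0% of all).

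The libraries differed in depth, which is the sum of the bin values of the table and not the number of fragments sequenced. These sums ranged from 12370094 to 25232000 in DU-145 libraries. In BT-549 they ranged from 9142900 to 13606129 with vehicle and from 2502510 to 3267024 with DOX. Values are given as scaled coverage, the mean fragment coverage of a region per 10000000 of the library sum. The raw coverage in the BT-549 DOX libraries was low, between 1.74 and 2.90 fragments per base over the GBP1 promoter region, as compared with 23.8 to 32.9 in the vehicle libraries. The groups were compared with edgeR's quasi-likelihood test, the p-values were adjusted by the Benjamini-Hochberg method over all regions of the table, and a region was called at an adjusted p below 0.05. With 3 libraries in each group, the smallest p of an exact permutation test is 0.1. The study's methods call the replicates of a condition biologically independent, and the sources used here do not say what was kept separate between them. As a check of the lines, the promoters of the epithelial genes EPCAM, CDH1, KRT8 and KRT18 were accessible in the DU-145 table (4 of 4) and not in the BT-549 table (0 of 4), and those of the mesenchymal genes VIM, ZEB1, CDH2 and COL6A3 were accessible for 3 of 4 in BT-549 and 2 of 4 in DU-145.

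In BT-549 cells, regions at or beside GBP start sites lost accessibility with DOX. Those over the start sites of GBP1, GBP2 and GBP3 and those beside that of GBP5 fell between 1.84-fold and 4.12-fold, GBP4 was lower without passing the test, and GBP6 and GBP7 had no region to test. Of the 20 regions of the cluster, 11 fell and 1 rose, against 18% and 12.2% of all BT-549 regions. The region that rose was the KYAT3/RBMXL1 promoter. In 14 of the 20, the DOX libraries lay below all vehicle libraries, as they did in 27.0% of all regions. Many of the 20 had peaks in vehicle libraries only and so entered the table through the group where they were high, which favors a fall. The median log2 fold change was -1.0 over the 20 regions and -0.10 over all 46298. In the flanking 2 Mb on both sides of the windows, 15 of 74 regions fell and 6 rose, with a median of -0.14.

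GBP1, the lead sensor of the family, had a region of 1300 bp over its start site (chr1:89064601-89065900, exon 1 and its 5′ UTR). Its scaled coverage was 24.2, 26.7 and 26.0 in the vehicle libraries and 7.88, 6.94 and 8.88 in the DOX libraries. The groups were far apart, and the means of 25.6 ± 1.31 and 7.90 ± 0.973 (SD, n = 3) correspond to a fold of 3.20 (log2 fold change -1.68, SE 0.20, adjusted p 3.76e-07). A peak from the authors' peak caller overlapped this region in 3 of 3 vehicle and 1 of 3 DOX libraries. The highest bin lay 142 bp upstream of the start site and contained the ISRE match shown above, and it went from 52.3 ± 7.49 to 10.4 ± 1.89.

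GBP2, recruited by GBP1 to bacteria and vacuoles, had its region over exon 1 (chr1:89125701-89126700). Scaled coverage was 19.5, 19.6 and 15.4 in vehicle and 5.11, 2.93 and 5.31 in DOX libraries. This was the largest fall among the regions over a start site (4.12-fold, log2 fold change -2.04, SE 0.29, adjusted p 4.15e-06), and the groups did not overlap. All 3 vehicle libraries and 0 of 3 DOX libraries had a peak there. The region thus entered the table through its vehicle libraries only, a selection that favors a fall. A neighboring region in an intron of the longer GBP2 transcripts, upstream of the canonical start site (chr1:89127901-89129400), showed a different pattern. Its means were 11.4 ± 1.83 in vehicle and 10.7 ± 0.593 in DOX libraries (log2 fold change -0.09, SE 0.22, adjusted p 0.790), and the groups overlapped.

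GBP5, an activator of inflammasome assembly in macrophages, had the tallest region of the GBP genes, centered 1790 bp upstream of its start site (chr1:89273301-89275200). It measured 36.8, 32.4 and 32.4 in vehicle and 12.3, 7.60 and 9.06 in DOX libraries. The fall was 3.53-fold (log2 fold change -1.82, SE 0.17, adjusted p 3.27e-09) without overlap, and a peak was present in every BT-549 library. Its highest bin, next to the pair of GAS matches, went from 114.9 ± 12 to 25.5 ± 8.01. A smaller region in an intron of GBP5 (chr1:89271501-89272300) reached 19.0, 21.7 and 19.2 with vehicle and 15.5, 3.47 and 1.99 with DOX. Here DOX replicate 1 lay close to the vehicle libraries and the other DOX libraries far below (log2 fold change -1.57, SE 0.38, adjusted p 0.00209, and -2.93 without DOX replicate 1). DESeq2 did not call this region (adjusted p 0.160).

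GBP3, which joins GBP1 in the caspase-4 platform, measured 14.7, 15.7 and 14.5 in vehicle and 6.76, 9.82 and 8.05 in DOX libraries over its start site (chr1:89021801-89023300). The fall of 1.84-fold (log2 fold change -0.88, SE 0.22, adjusted p 0.00278) was smaller than that of GBP1, GBP2 and GBP5, the groups did not overlap, and every BT-549 library had a peak. GBP4, the remaining member of that platform, had the weakest start-site region (chr1:89198401-89199100), at 9.09, 8.53 and 10.1 in vehicle and 2.64, 4.51 and 7.02 in DOX libraries. All DOX libraries lay below all vehicle libraries, but the test was not passed (log2 fold change -0.91, SE 0.37, adjusted p 0.0605). A peak was present in 3 of 3 vehicle and 0 of 3 DOX libraries. The GBP4 region thus entered the table through its vehicle libraries only, a selection that favors this order. GBP4 was called in 1 of 16 alternatives, without DOX replicate 3 (-1.34, adjusted p 0.0259), and the adjusted p reached 0.298 in the others.

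**Figure D1:**
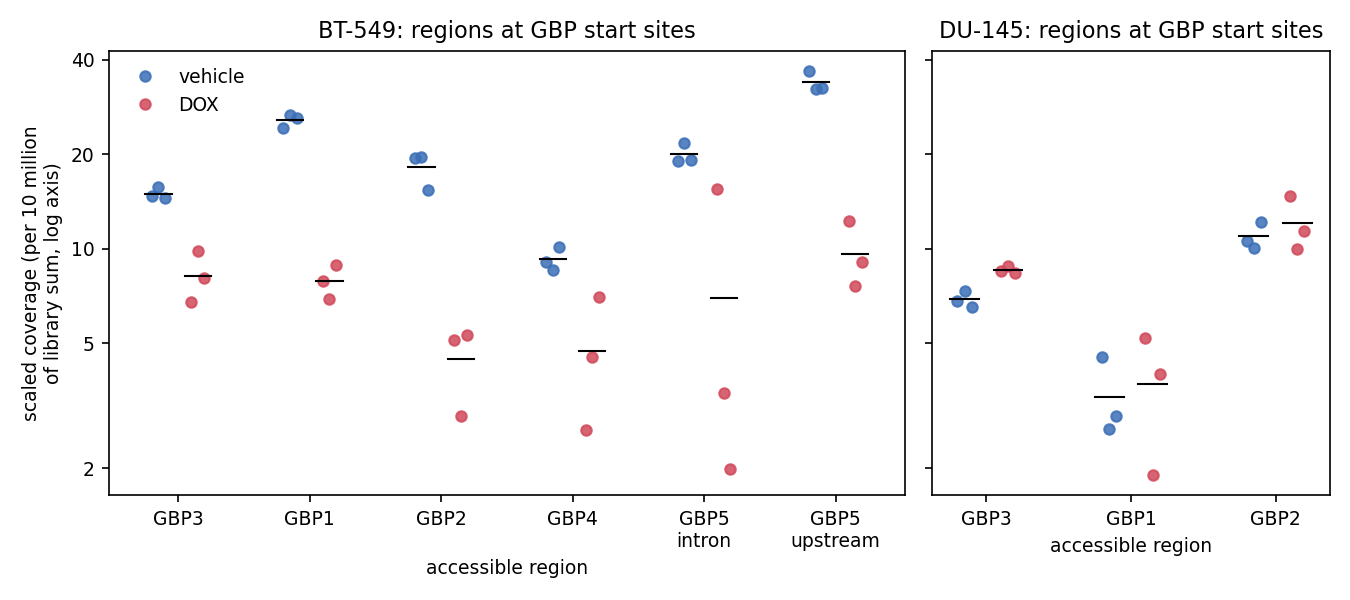
Scaled coverage (log axis) of each accessible region within 1 kb of a GBP start site, in BT-549 (left) and DU-145 cells (right). Each point is a library, vehicle in blue and DOX in red, and the line is the mean of 3 libraries. In BT-549, the vehicle libraries lie above the DOX libraries in all 6 regions, whereas in DU-145 the groups overlap at GBP1 and GBP2.

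Beyond the start sites, the cluster had distal regions in BT-549 cells, most of which were shallow. Of those that fell, the 5 with the smallest adjusted p were spread from GBP3 to GBP6. A region 20684 bp upstream of GBP3 (chr1:89043301-89044300) fell by 1.58 on the log2 scale (SE 0.40, adjusted p 0.00339). Downstream of the 3′ end of GBP1, there were 2 such regions, at chr1:89047601-89048600 (-1.27, SE 0.37, adjusted p 0.00957) and chr1:89049901-89051200 (-1.22, SE 0.38, adjusted p 0.0148). The others were in exon 2 of GBP1 (chr1:89062901-89063400, -2.01, SE 0.62, adjusted p 0.0152) and over GBP1P1, a pseudogene of GBP1 (chr1:89407401-89408400, -1.04, SE 0.31, adjusted p 0.0123). Each had a peak in 3 of 3 vehicle and 0 of 3 DOX libraries. A region was kept when at least 3 replicates of a line had it, so these regions entered through the vehicle libraries only. That selection favors a fall, and the peak counts add no support to it. Their raw coverage in the DOX libraries was at most 1.79 fragments per base, and that of exon 2 of GBP1 was 1.25, 0 and 0.272. Single libraries decided some of these calls. At exon 2, the call was lost without DOX replicate 2 (-1.5, adjusted p 0.0546), DOX replicate 3 (-1.53, adjusted p 0.0950) or vehicle replicate 2 (-1.86, adjusted p 0.0693), and the value was -4.19 without DOX replicate 1. At chr1:89049901-89051200, it was lost without DOX replicate 3 (-0.69, adjusted p 0.136) or vehicle replicate 3 (-1.08, adjusted p 0.0847), and the value was -1.97 without DOX replicate 1. At GBP1P1, it was lost without vehicle replicate 3 (-0.95, adjusted p 0.0589). All 5 lost the call with limma-trend (adjusted p from 0.0569 to 0.108). With the highest bin, all but GBP1P1 lost it, with adjusted p up to 0.623 at exon 2. With the GC trend removed, it was lost at chr1:89047601-89048600 and at GBP1P1 (adjusted p 0.189), and thinning lost it at chr1:89043301-89044300. A further region upstream of GBP5 fell (-1.63, adjusted p 0.0170), and another 6 regions away from the start sites were not called, with log2 fold changes from -0.96 to 0.24, beside the region upstream of the GBP2 start site given above. The GBP1, GBP2 and upstream GBP5 regions stayed called in each of 16 alternatives, with log2 fold changes from -2.29 to -1.17, from -2.28 to -1.54 and from -2.14 to -1.57, respectively.

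The KYAT3/RBMXL1 promoter (chr1:88991401-88993700) went the other way in the same libraries. It measured 50.7, 59.2 and 52.2 in vehicle and 71.8, 68.3 and 63.7 in DOX libraries (log2 fold change 0.33, SE 0.10, adjusted p 0.0105). No vehicle library reached the lowest DOX library, although the call was lost without vehicle replicate 1 (adjusted p 0.0913).

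**Figure D2:**
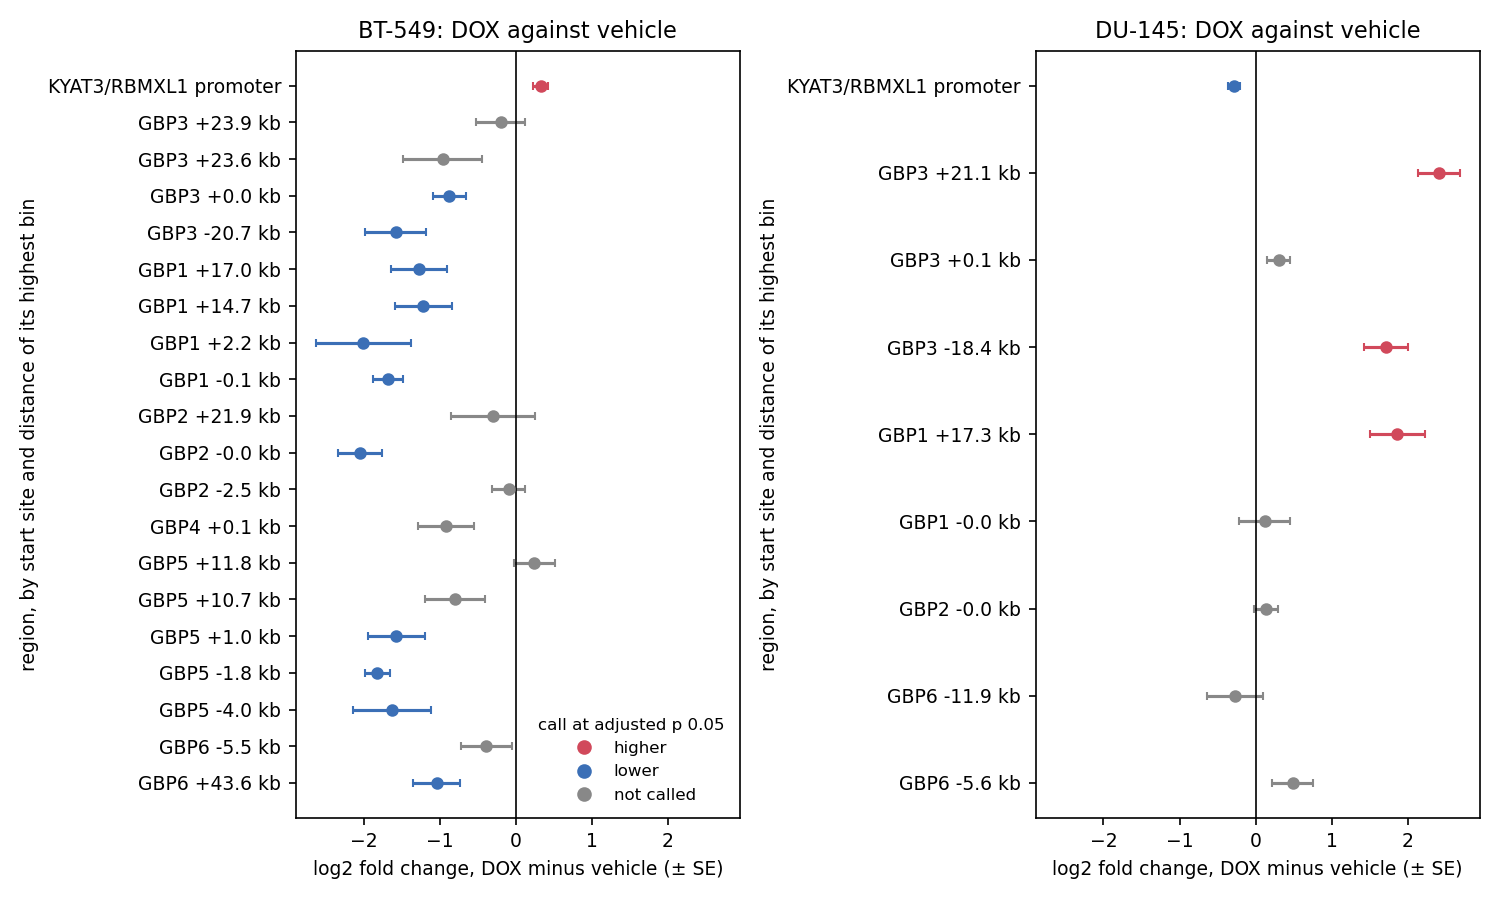
Log2 fold change (DOX minus vehicle) with its SE for every accessible region of the cluster, in order along the chromosome from low (top) to high coordinates. Labels give the nearest GBP start site and the distance of the region's highest bin from it in the direction of transcription. Blue regions were lower (11 in BT-549, 1 in DU-145), red regions were higher (1 in BT-549, 3 in DU-145) and gray regions were not called.

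Base composition and depth moved with this result. The median GC content was 44.3% in the 20 regions of the cluster and 51.4% in all BT-549 regions. Among the 13122 BT-549 regions with 35% to 45% GC, 31.0% fell with a median log2 fold change of -0.48, and 6 of the 9 cluster regions in that range fell. When the GC trend of each library was removed, 6 regions of the cluster were lower, against 12% of all regions, and GBP3 (log2 fold change -0.40, adjusted p 0.194) and the GBP5 intron (-0.94, adjusted p 0.0728) were no longer called. Thinning every library to the depth of the shallowest left 10 of the 20 lower, against 13.5% of all regions. With TMM factors, 11 were lower, while the background became 15.9% higher and 14.8% lower.

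The shape of the signal around the start sites is shown next, as bins of 100 bp. The bin with the highest vehicle coverage lay 36 bp upstream of the start site for GBP2 (35.5 ± 6.55 in vehicle and 7.99 ± 3.14 in DOX libraries) and 16 bp downstream for GBP3 (28.4 ± 1.56 and 13.8 ± 3.32). For GBP4 it lay 8 bp upstream (12.9 ± 0.507 and 2.80 ± 2.18). Hence the accessible chromatin of GBP1, GBP2, GBP3 and GBP4 was centered within 200 bp of the start site, and that of GBP5 was not.

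**Figure D3:**
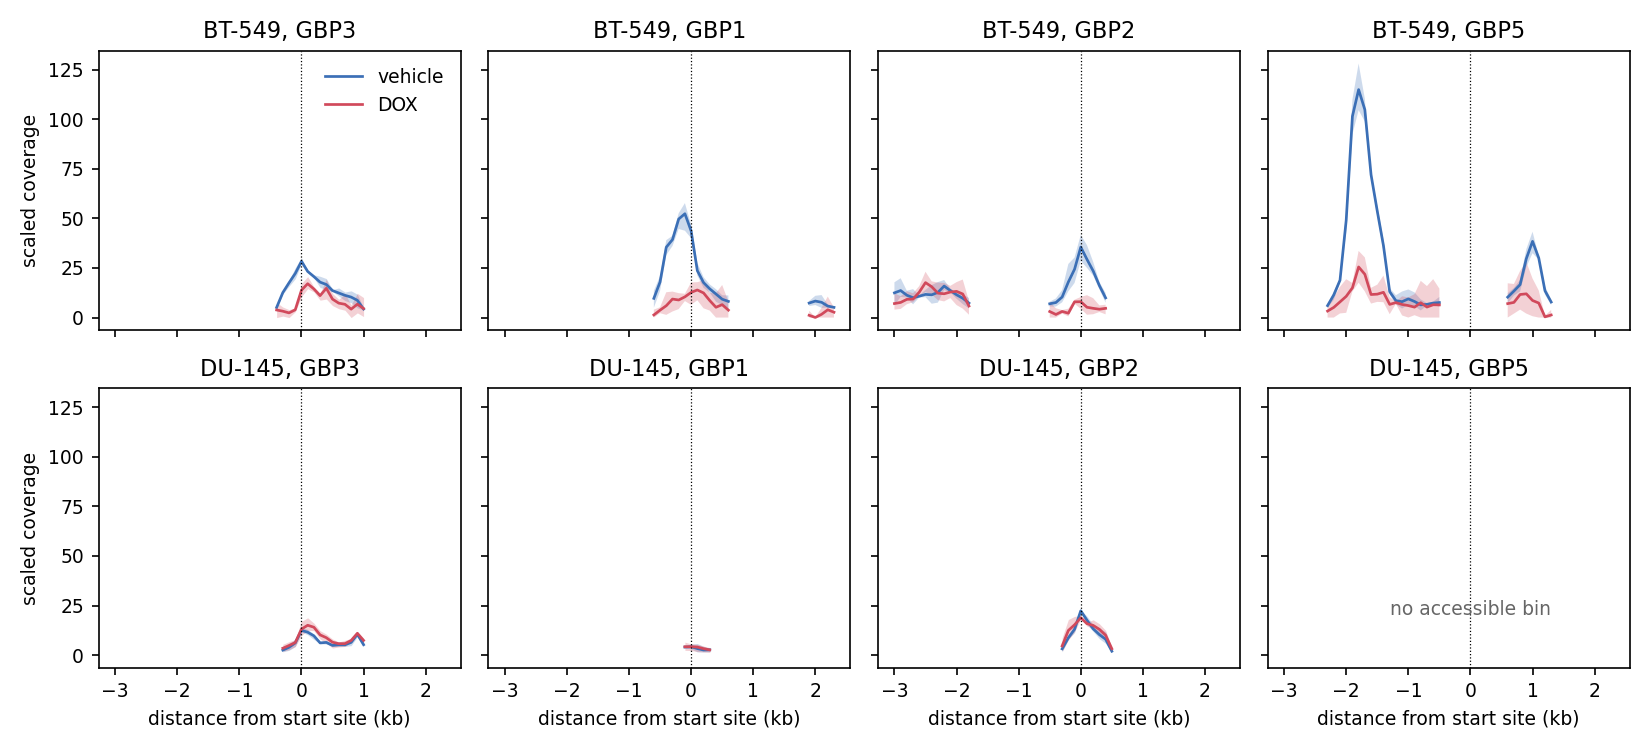
Scaled coverage of each 100-bp bin (mean of 3 libraries, shading from the lowest to the highest library) against the distance from the start site in kb, negative upstream, for GBP3, GBP1, GBP2 and GBP5 in BT-549 (top) and DU-145 cells (bottom). Gaps are bins that the table does not hold. The tallest vehicle bin is the one 1790 bp upstream of GBP5 in BT-549 (114.9), and DU-145 has no bin around GBP5.

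In DU-145 cells, the GBP start sites were not called with DOX, and 3 intergenic regions around GBP3 and GBP1 opened. Of the 9 regions, 3 rose and 1 fell with DOX, against 37.1% and 17.4% of all DU-145 regions. The DOX libraries lay above all vehicle libraries in 5 of the 9 (40.1% of all regions) and below them in 1 (19.4%). The median log2 fold change was 0.30, as compared with 0.24 over all 79177 regions and 0.34 over the 101 regions in the flanking 2 Mb, of which 40 rose and 14 fell. With TMM factors, the median over all regions was 0.05 and the background 30.0% higher and 25.5% lower.

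The largest rise was in an intergenic region 21115 bp downstream of the GBP3 start site, beyond the 3′ end of the gene (chr1:89001401-89002000), whose central sequence is shown above. It measured 1.05, 2.01 and 1.28 in vehicle and 9.34, 7.68 and 8.02 in DOX libraries, a fold of 5.30 (log2 fold change 2.41, SE 0.28, adjusted p 4.07e-09). No DU-145 vehicle library and all 3 DU-145 DOX libraries had a peak there. The region thus entered the table through its DOX libraries only, a selection that favors a rise. In BT-549 cells the region was not in the table, and a peak was present in 2 of 3 vehicle and 0 of 3 DOX libraries.

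A region 18384 bp upstream of GBP3, with the 2 AP-1 matches (chr1:89041101-89041600), measured 1.78, 1.89 and 3.27 in vehicle and 7.24, 8.45 and 6.28 in DOX libraries (3.29-fold, log2 fold change 1.72, SE 0.29, adjusted p 5.17e-06). Between GBP3 and GBP1, 17257 bp downstream of the GBP1 start site, a region of 400 bp (chr1:89047801-89048200) measured 1.18, 1.15 and 2.89 in vehicle and 7.63, 5.60 and 4.89 in DOX libraries (3.64-fold, log2 fold change 1.86, SE 0.36, adjusted p 4.33e-05). A peak was present in 2 of 3 vehicle and 3 of 3 DOX libraries at the former, and in 1 of 3 and 3 of 3 at the latter. Their vehicle libraries alone would not have brought these 2 regions into the table, a selection that favors a rise. In all 3 regions the groups were apart, an order that this selection favors. Each call was kept in 16 alternatives on the same selected regions, where the lowest log2 fold changes were 1.85, 1.02 and 1.22. These values were the ones with the GC trend removed. The median GC content of the 9 regions was 40.8%, against 47.7% in all DU-145 regions, and among the 28099 regions with 35% to 45% GC, 51.7% rose, as did 3 of the 7 cluster regions in that range.

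At the start sites in DU-145 cells, GBP3 (chr1:89021801-89023200) measured 6.83, 7.32 and 6.51 in vehicle and 8.50, 8.83 and 8.34 in DOX libraries. The groups did not overlap but the test was not passed (log2 fold change 0.30, SE 0.15, adjusted p 0.0793). GBP2 (chr1:89125601-89126500) measured 10.6, 10.1 and 12.2 in vehicle and 14.7, 10.0 and 11.4 in DOX libraries, with overlapping groups (log2 fold change 0.14, SE 0.16, adjusted p 0.501). GBP1 (chr1:89064901-89065400) measured 4.50, 2.67 and 2.94 in vehicle and 5.19, 1.90 and 3.99 in DOX libraries (log2 fold change 0.12, SE 0.34, adjusted p 0.791). With the GC trend removed, the direction at these start sites turned, and GBP3 (-0.35, adjusted p 0.0459) and GBP2 (-0.44, adjusted p 0.0150) were called lower, so that no direction is read from them. The KYAT3/RBMXL1 promoter was lower with DOX in this line (58.3, 53.5 and 55.9 in vehicle and 50.9, 42.3 and 45.1 in DOX libraries, log2 fold change -0.28, SE 0.08, adjusted p 0.00303), and the adjusted p was 0.0522 with the GC trend removed. The remaining 2 regions, both upstream of GBP6, had log2 fold changes of -0.27 and 0.49 and were not called.

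The vehicle libraries of the lines were compared over the 6 runs of bins that both tables hold. All 6 were higher in BT-549, against 53.5% higher and 23.0% lower of the 32671 shared runs, and the groups were apart in all 6 (53.7% of all shared runs, with another 23.7% apart in the other direction). The difference was largest at the GBP1 promoter, which measured 4.50, 2.67 and 2.94 in DU-145 and 31.7, 29.7 and 29.7 in BT-549 vehicle libraries (9.25-fold, log2 difference 3.21, SE 0.22, adjusted p 9.54e-16). At GBP3, the values were 6.83, 7.32 and 6.51 in DU-145 and 15.4, 16.5 and 15.2 in BT-549 (2.26-fold, log2 difference 1.18, SE 0.15, adjusted p 6.18e-09). GBP2 was the start site with the smallest difference, at 11.6, 11.1 and 13.5 in DU-145 and 22.1, 22.9 and 17.6 in BT-549 (1.75-fold, log2 difference 0.81, SE 0.16, adjusted p 2.99e-05). Within BT-549 vehicle libraries, the order of the shared start sites was GBP1, GBP2 and GBP3, with no overlap between neighbors. Within DU-145 vehicle libraries, the order was GBP2, GBP3 and GBP1, also with no overlap.

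The remaining shared runs were the region 17257 bp downstream of the GBP1 start site (3.80-fold, log2 difference 1.93, SE 0.37, adjusted p 1.53e-05), a region 5608 bp upstream of GBP6 (chr1:89358301-89358800, 3.40-fold, 1.77, SE 0.26, adjusted p 2.19e-07) and the KYAT3/RBMXL1 promoter (1.26-fold, 0.34, SE 0.08, adjusted p 0.000249). The median log2 difference was 1.47 in the 6 runs, 0.87 in the 44 shared runs of the flanking 2 Mb, of which 31 were higher and 3 lower in BT-549, and 0.47 over all shared runs. The run downstream of GBP1 had peaks in 1 of 3 vehicle and 3 of 3 DOX libraries in DU-145, and in 3 of 3 and 0 of 3 in BT-549. It thus entered the DU-145 table through DOX and the BT-549 table through vehicle libraries, which favors a higher BT-549 value here. The number of copies of this part of chromosome 1 in each line was not measured here, and it cannot be told apart from accessibility in this comparison. With TMM factors, 36.6% of all shared runs were higher and 36.0% lower, and the KYAT3/RBMXL1 difference turned to -0.08. With the GC trend removed, the GBP1 promoter (2.23) and the run upstream of GBP6 (0.83) stayed higher in BT-549, as were 34.7% of all shared runs. The differences at GBP3 (0.07, adjusted p 0.689), downstream of GBP1 (0.76, adjusted p 0.0653) and at KYAT3/RBMXL1 (0.13, adjusted p 0.133) were no longer called, and GBP2 turned to -0.19 (adjusted p 0.294).

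The response to DOX differed between the lines in 5 of the 6 shared runs. The interaction of line and DOX over all 12 libraries, taken as the BT-549 effect minus the DU-145 effect, was lower in 4 runs (22.0% of all shared runs) and higher in 1 (17.8%). It was -2.21 (SE 0.34, adjusted p 1.28e-06) at the GBP2 promoter, -1.49 (SE 0.42, adjusted p 0.00442) at GBP1 and -1.19 (SE 0.26, adjusted p 0.000227) at GBP3. The run 17257 bp downstream of GBP1 had -2.54 (SE 0.65, adjusted p 0.00169), and there the DU-145 DOX libraries rose to 7.63, 5.60 and 4.89 while the BT-549 DOX libraries scattered at 7.79, 0.400 and 3.50. The KYAT3/RBMXL1 promoter had the opposite sign (0.62, SE 0.12, adjusted p 9.24e-05), and the run upstream of GBP6 was not called (-0.92, SE 0.43, adjusted p 0.0848). In BT-549, GBP2 and the run downstream of GBP1 had peaks in 3 of 3 vehicle and 0 of 3 DOX libraries, and GBP1 in 3 and 1. They thus entered the BT-549 table through vehicle libraries, which favors an interaction below zero. In DU-145, the run downstream of GBP1 had a peak in 1 of 3 vehicle and 3 of 3 DOX libraries, which favors the same sign. GBP2 and KYAT3/RBMXL1 kept their calls in each of 22 alternatives, all on the same selected runs. At GBP1 (-0.72, adjusted p 0.206), GBP3 (-0.31, adjusted p 0.389) and the run downstream of GBP1 (-1.54, adjusted p 0.0680), the call was lost with the GC trend removed. With that setting, 15.7% of all shared runs had an interaction called below zero. Without BT-549 DOX replicate 1, the run downstream of GBP1 had -3.39.

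With DOX, the GBP2 start site in BT-549 (6.39, 3.52 and 5.06) lay below that in every DU-145 library, whereas GBP1 in BT-549 (10.9, 10.6 and 13.3) remained above the DU-145 DOX libraries (5.19, 1.90 and 3.99). GBP3 in BT-549 DOX libraries (6.97, 10.5 and 8.08) overlapped with the DU-145 DOX libraries (8.50, 8.83 and 8.34).

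**Figure D4:**
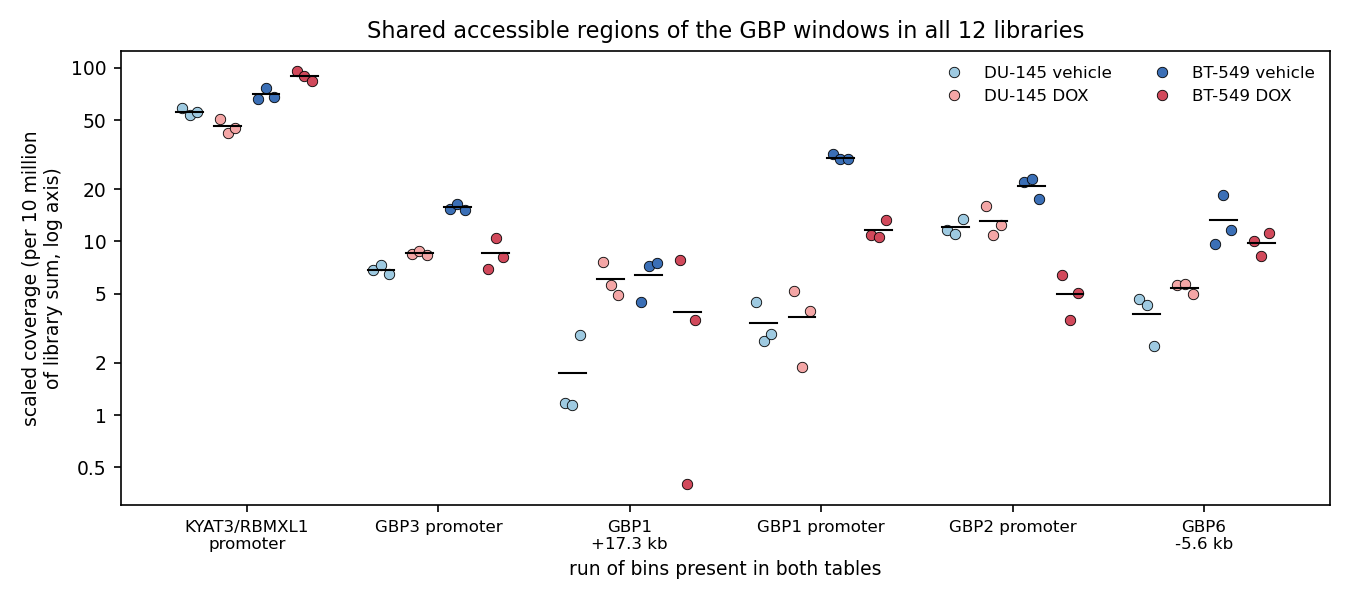
Scaled coverage (log axis) of the 6 runs of bins present in both tables, in all 12 libraries. Each point is a library and the line is the mean of 3. At GBP3, GBP1 and GBP2, dark blue (BT-549 vehicle) is the highest group, and red (BT-549 DOX) is the lowest group at GBP2.

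The peak lists were made for each library on its own. The regions of the tables were built from peaks of these same libraries, so the lists are no independent view of the windows. The DU-145 windows held 7, 6 and 6 peaks with vehicle and 12, 8 and 12 with DOX. For BT-549, the counts were 37, 38 and 28 with vehicle and 5, 7 and 6 with DOX. The number of peaks called in the whole genome also changed with depth, from between 65204 and 93929 in BT-549 with vehicle to between 30450 and 39837 with DOX. Per 1000 peaks of the library, the windows held 0.419 ± 0.0219 with vehicle and 0.167 ± 0.0345 with DOX in BT-549 libraries, and 0.0892 ± 0.0154 and 0.118 ± 0.0299 in DU-145 vehicle and DOX libraries (SD, n = 3). The BT-549 groups were apart on this scale, and the DU-145 groups overlapped. Whether this scale removes the effect of depth was not tested. At the GBP4 start site, which the DU-145 table does not hold, 2 of 3 DU-145 DOX libraries and no vehicle library had a peak.

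The other genes of the interferon-gamma pathway were read from 3 lists of 11, 12 and 12 genes, by the accessible region at the promoter. In the signalling list (receptor, kinases, transcription factors and inhibitors), 11 of 11 promoters were accessible in both lines. In BT-549 cells, 3 rose and 1 fell with DOX, with a median log2 fold change of 0.19, as compared with 0.09 over the promoters of all protein-coding genes. Across the 11819 BT-549 promoter regions, 18.3% rose and 6.92% fell, and of the 5 GBP genes with a region within 1 kb of the start site 0 rose and 4 fell (median -1.68). This background was not matched for GC content. The GBP1, GBP2 and GBP3 regions had 39.8% to 40.5% GC, and of all BT-549 regions with 35% to 45% GC, 31.0% fell (median -0.48). IRF1, an activator of GBP transcription, was not called in BT-549, at 36.3 ± 2.49 in vehicle and 42.7 ± 3.24 in DOX libraries (log2 fold change 0.23, SE 0.10, adjusted p 0.0824). IRF9, the DNA-binding partner of STAT2, was the 1 that fell (-0.47, SE 0.15, adjusted p 0.0154). The receptor gene IFNGR1 rose (0.46, SE 0.11, adjusted p 0.00276), as did PTPN2 (0.36, adjusted p 0.0268) and PIAS1 (0.55, adjusted p 0.0363), which restrain JAK-STAT signalling.

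In DU-145 cells, 0 of these 11 promoters rose and 7 fell (median -0.38), against 8.18% and 39.8% of 12348 promoter regions and a median of -0.18 over protein-coding genes. They included IRF1 (-0.46, SE 0.08, adjusted p 3.38e-06) and IRF9 (-1.0, SE 0.13, adjusted p 9.13e-08), and STAT2, JAK1, JAK2, IRF2 and PTPN2 were the other five. These counts moved with the scaling. Over the 3 lists together, 11 promoters fell in DU-145, as compared with 21 with RLE and 19 with TMM factors.

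Among the response genes other than GBPs, 8 promoters were accessible in DU-145 (1 higher and 2 lower) and 5 in BT-549 (0 higher and 1 lower). The promoters of the chemokine genes CXCL9, CXCL10 and CXCL11 and of APOL3 were accessible in neither line. PSMB8, an immunoproteasome subunit, was the BT-549 promoter that fell (24.1 ± 1.90 to 15.8 ± 1.85, log2 fold change -0.62, SE 0.13, adjusted p 0.000819). TAP1 and PSMB9, which share a promoter region, stood at -0.11 on the log2 scale (SE 0.11, adjusted p 0.481). In DU-145, CIITA, the activator of MHC class II genes, rose (0.77, SE 0.20, adjusted p 0.00102), and B2M (-0.53, adjusted p 7.95e-05) and IRF8 (-0.44, adjusted p 0.00985) fell.

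In the list of partners in cell-autonomous immunity, 10 of 12 promoters were accessible in each line. In BT-549, 3 rose and 4 fell (median -0.23), against 18.3% and 6.92% of all promoter regions. Over the 3 lists together, 6 rose and 6 fell in this line, with 3 higher without vehicle replicate 3 and 3 lower without vehicle replicate 1. Those that fell were UBE2L6, the conjugating enzyme for ISG15 (22.8 ± 1.12 to 10.7 ± 2.56, log2 fold change -1.09, SE 0.15, adjusted p 3.73e-06), ISG15 itself (-0.56, SE 0.09, adjusted p 4.32e-05), and the inflammasome genes CASP1 (-1.44, SE 0.43, adjusted p 0.0106) and PYCARD (-1.03, SE 0.36, adjusted p 0.0301). ATG5 (0.77, SE 0.12, adjusted p 2.26e-05), IRGQ (0.67) and RNF213 (1.28) rose, and CASP4, the caspase recruited by GBPs, was not called (-0.01, SE 0.23, adjusted p 0.977). In DU-145, NLRP3 (1.18, SE 0.26, adjusted p 0.000226), AIM2 (0.96, SE 0.27, adjusted p 0.00308) and RNF213 (0.54, SE 0.14, adjusted p 0.000993) rose, and ATG5 and IRGM fell.

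**Figure D5:**
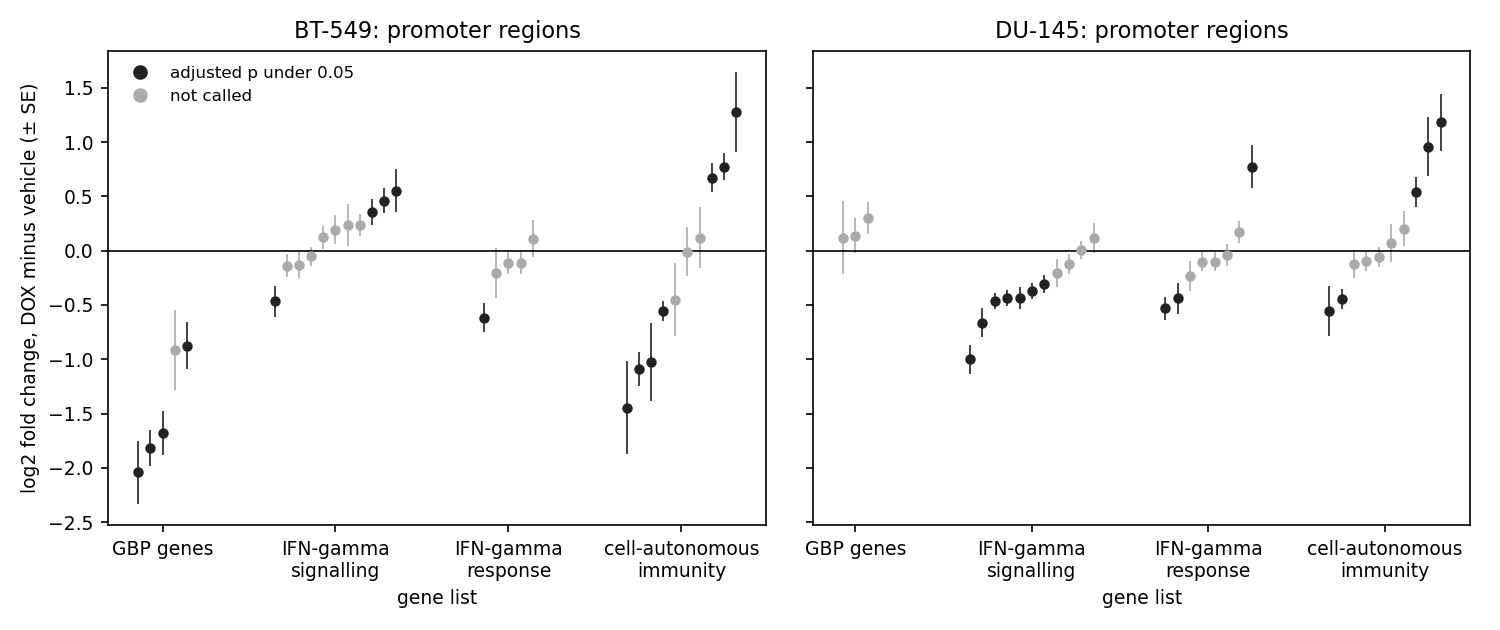
Log2 fold change (DOX minus vehicle) with its SE of the promoter regions of the GBP genes and of the 3 lists, each sorted by value, in BT-549 (left) and DU-145 cells (right). Black points have an adjusted p below 0.05. In BT-549, 4 of 5 GBP genes lie below zero as black points, whereas in DU-145 the 3 GBP genes are gray and 7 of 11 signalling genes are black and below zero.

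The promoter whose pattern was compared with those of other genes was that of GBP2, which had the highest mean over all libraries among the GBP promoters that both tables hold. Over the 12 libraries, the Pearson correlations of its log2 scaled coverage were highest with SRPX2 (0.901), CA13 (0.895), BTN3A3 (0.889), NUDT17 (0.882) and OASL (0.882), among 12599 other promoters. These points share the 2 lines and the depth of their libraries, and the correlations are a description.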

How the data were processed

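Reads were mapped by the authors to GRCh38 (bwa-mem), cleared of duplicates (Picard) and used to call peaks in each replicate with MACS2 (version 2.2.7.1, q-value below 0.05, paired-end mode). They merged the regions found in at least 3 replicates of a line and cut them into 100-bp bins. Per bin, the authors deposited an estimated count, the mean fragment coverage of the bin, which they did not normalize for depth. The deposited peak lists give, for each library, a fold enrichment (ratio) and -log10 p-values and q-values, none of which was used beyond the position and the q-value. How fragments that match more than 1 GBP gene were placed is not given in the sources used here, so that values of near-identical stretches of GBP1, GBP3 and GBP1P1 are uncertain.

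Bin values were summed over each region, rounded to whole numbers, since they were not whole, and fitted in edgeR 4.0.16 (R 4.3.3), whose quasi-likelihood test was used with robust estimates. The library size was the column sum of the table, regions with a total of at least 10 were tested, and p-values were adjusted over all regions of the fit. The lines and the interaction were tested on runs of bins present in both tables. The SE is the size of the log2 fold change divided by the square root of the F value. A promoter region overlaps 1 kb on either side of the start site of the canonical transcript. The procedure was tested on simulated data. Peaks were counted in the windows by their summit and in single regions by overlap.

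Samples were grouped by the DOX- and DOX+ in their titles. The labels call the DOX- cells untreated in one field, and the study's methods give DMSO. The members, gene lists and sequence words were chosen with earlier results of these data known, and 1 gene of the signalling list is not reported here. Named regions are those within 1 kb of a GBP start site and, in each comparison, up to 5 others per direction with the smallest adjusted p. The GBP2 intron and the other regions given with values fall outside this rule and were added after their values were seen. Alternatives were TMM and RLE factors, a GC trend removed over 50 GC classes, no filter, filterByExpr, DESeq2 1.42.0, limma-trend (limma 3.58.1, log2 of the scaled value plus 1), the highest bin, single bins, thinning, other thresholds, windows of 5 kb, sums over shared bins, a replicate block and leaving out each library.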

Additional observations from a re-analysis of the deposited data

Results flagged for a closer look

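The difference between the lines in the response to DOX was tested as the interaction of line and DOX in edgeR's quasi-likelihood fit over 12 libraries. It singled out 5 of the 6 shared runs of bins, against 17.8% called higher and 22.0% called lower of all shared runs. The values are the BT-549 effect minus the DU-145 effect on the log2 scale. At the GBP start sites they were -2.21 for GBP2, -1.49 for GBP1 and -1.19 for GBP3. The run at chr1:89047801-89048200, downstream of GBP1, had -2.54, and the KYAT3/RBMXL1 promoter, beside the cluster, had 0.62. With the GC trend removed, the calls at GBP1, GBP3 and the run downstream of GBP1 were lost (adjusted p 0.206, 0.389 and 0.0680). GBP2, GBP1 and the run downstream of GBP1 entered the BT-549 table through their vehicle libraries, a selection that favors a value below zero. The depth of the BT-549 DOX libraries was the lowest of the series, and its part in these differences was not tested.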

How the results depend on the processing

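Of the values recomputed for single regions, 483 kept their direction and side of the threshold, 31 lost a call, 4 gained one and 14 turned sign. Among the counts, 200 stayed within 1.5 times of the reported ones and 18 did not. Removing the GC trend had the widest effect. With it, regions lower in BT-549 went from 11 to 6 and regions higher from 1 to 2, and regions lower in DU-145 from 1 to 2. Over all regions, 12% were then lower and 13.1% higher in BT-549, and 25.2% lower in DU-145. Shared runs higher in BT-549 vehicle went from 6 to 2 and interactions below zero from 4 to 1. Of all shared runs, 34.7% and 15.7% were then called so, and the counts in the cluster were near these shares. Removing the trend also turned GBP3 (-0.35), GBP1 (-0.46) and GBP2 (-0.44) in DU-145 and GBP2 between the lines (-0.19). In BT-549, the highest bin gave 7 lower and 0 higher (10.9% and 9.31% of all regions), and limma-trend gave 6 lower (14.3% of all). A fold of at least 2 with an adjusted p below 0.01 gave 6 lower and 0 higher in that line. The fold of 2 with an adjusted p below 1e-05 gave 0 lower in DU-145. Windows of 5 kb, which leave out the KYAT3/RBMXL1 promoter, gave 0 lower in DU-145 and 0 higher in BT-549. Without 1 library, regions higher in BT-549 ranged from 0 to 1, with 0 without vehicle replicate 1, and regions lower from 9 to 11. The pathway promoters lower in DU-145 went from 11 to 21 with RLE and 19 with TMM factors. Those in BT-549 ranged from 3 to 7 higher, with 3 without vehicle replicate 3, and from 3 to 6 lower, with 3 without vehicle replicate 1. Uncalled start sites in DU-145 also turned at GBP1 (-0.13 with RLE, -0.079 with TMM, and -0.18 without DOX replicate 1 and -0.056 without vehicle replicate 2, within a range of -0.18 to 0.46 over the libraries left out) and GBP2 (-0.11 with RLE, -0.059 with TMM, -0.24 with the highest bin and -0.028 without DOX replicate 1, within a range of -0.028 to 0.26). The KYAT3/RBMXL1 difference between the lines turned to -0.096 with RLE and -0.082 with TMM. Apart from what the fewer libraries or smaller windows themselves bring, the cause was not tested.

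Same-numbered samples did not deviate together (correlations from -0.03 to 0.06), so that the replicate numbers were not taken as pairs. The replicate block left 11 regions lower and 1 higher in BT-549, 3 higher and 1 lower in DU-145, 6 higher between the lines and 4 interactions below zero, and it changed no call of a named region.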
